A study of Brachypodium distachyon with 6 samples.

Results

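Head-to-head gene pairs are neighbouring genes on opposite strands whose starts face each other, so that both are transcribed outwards from one short stretch of DNA. Here they were taken from the gene coordinates alone: of the 25622 loci with 1 annotated transcript on chromosomes 1 to 5 of Brachypodium distachyon, directly adjacent pairs were kept when the left locus lay on the minus strand, the right locus on the plus strand, and 1 to 1000 bp lay between them. The rule gave 766 pairs, or 1532 loci, of 25617 adjacent pairs in all. Of 6006 head-to-head neighbours at any distance, these 766 are 12.8%, and of the others 192 touched or overlapped and 5048 lay over 1000 bp apart. No expression value entered the choice. For comparison, 1677 tail-to-tail pairs (left locus on the plus strand, right locus on the minus strand, ends facing each other) and 2512 pairs on the same strand had the same range of gaps.

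In yeasts, animals and plants, genes with facing starts can share a promoter that works in both directions. Transcription machinery often enters such an open stretch in either orientation, yet each gene can still have its own core promoter and its own regulators. Auxin acts on many genes through auxin response factors, which bind short elements in promoters and are set free when Aux/IAA repressors are degraded. Genes with close starts can have such elements in common.

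The data are fragment counts per transcript from 6 root libraries of the reference line Bd21. The 2,4-D group consists of 3 libraries from roots with nodule-like structures, taken 7 days after whole seedlings had been soaked for 1 h in a 50 µM solution of the synthetic auxin 2,4-D. The untreated group consists of 3 libraries from roots without hormone, and both groups grew on a low-nitrogen medium. The labels do not tell whether untreated plants were soaked without hormone, nor whether a library, called a biological replicate, holds roots of 1 plant or of several. Library totals ran from 12528548 to 14146109 counts, and the 1532 head-to-head loci held 4.59% ± 0.183 of them in 2,4-D roots and 4.36% ± 0.122 in untreated roots (SD, n = 3 each). The identifiers had 0 matches in the gene table given for another assembly version, so the loci have no gene names or products here, root markers could not be checked, and most pairs are given by the coordinates of the stretch between their loci in annotation version 2.1.

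The first question was whether 2 loci with facing starts were expressed together. A locus was called detected when it passed the low-count filter used before testing. Both loci were detected in 374 pairs (48.8%), 1 of them in 256 pairs (33.4%) and neither in 136 pairs (17.8%). In tail-to-tail pairs the shares were 56.5% with both, 35.5% with 1 and 7.99% with neither. Taken one by one, 65.5% of head-to-head loci and 74.2% of tail-to-tail loci were detected. Multiplying the shares of detected left and right loci gives 42.9% of head-to-head pairs with both and 11.9% with neither, and the observed 48.8% and 17.8% were above these products. For tail-to-tail pairs the products were 55.1% and 6.63%, close to the observed shares. Same-strand pairs were also above their products, with 55.6% against 49.8% for both and 14.5% against 8.68% for neither. These are counts over loci, and no test of the difference between the classes was made.

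The shares differed between gaps. Among the 213 head-to-head pairs with a gap of at most 250 bp, 67.6% had both loci detected, 19.7% had 1 and 12.7% had neither. The products of the single shares were 59.99% with both and 5.06% with neither. Above 250 and up to 500 bp the share with both was 43.8%, and above 500 and up to 1000 bp it was 40.3%. Of the 507 tail-to-tail pairs with at most 250 bp between their ends, 62.9% had both loci detected and 31.8% had only 1, with products of 62.1% for both and 4.49% for neither. Same-strand pairs of that gap had both loci detected in 56.02% against a product of 46.1%, and neither in 20.3% against 10.3%, a wider distance than in head-to-head pairs. Mixed pairs, with 1 locus detected and 1 not, were thus a smaller share of the closest head-to-head pairs than of the closest tail-to-tail pairs, with 23.7% of same-strand pairs of that gap in between.

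**Figure D1:**
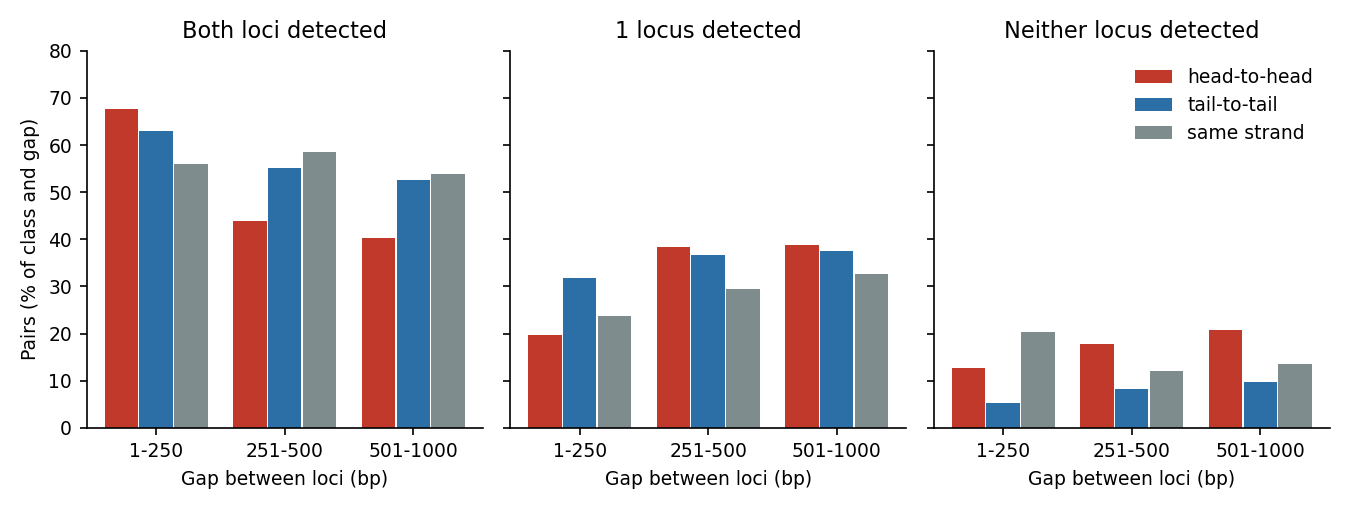
Share of pairs (y axis, percent of the pairs of a class and gap) with both, 1 or neither locus past the low-count filter, by gap between the loci in bp (x axis), for head-to-head, tail-to-tail and same-strand pairs. In the closest head-to-head pairs 67.6% had both loci detected and 19.7% had 1, against 62.9% and 31.8% in tail-to-tail pairs of that gap.

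Levels of 2 different loci were compared per exon length, as RPKM, the counts per kilobase of exon scaled to library size, averaged over the 6 libraries as log2(RPKM + 0.1). Over all 766 head-to-head pairs the levels of left and right loci had a Pearson r of 0.210, and over the 1677 tail-to-tail pairs 0.0846. In single libraries r was 0.201 to 0.216 for head-to-head, 0.0789 to 0.0964 for tail-to-tail and 0.262 to 0.284 for same-strand pairs, so the order of the 3 classes was the same in each of the 6 libraries. These correlations are descriptions across pairs, which share libraries and depth, and carry no test. In the closest head-to-head pairs, up to 250 bp, r was 0.440, with 0.441, 0.459 and 0.447 in the 2,4-D libraries and 0.432, 0.389 and 0.422 in the untreated libraries. Tail-to-tail pairs of that gap had an r of 0.0409. Same-strand pairs of that gap had an r of 0.422, so this likeness was not limited to facing starts.

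Among pairs with both loci detected the levels were hardly related. Over the 374 head-to-head pairs with both loci detected, r of the levels was 0.0233, and over the 947 such tail-to-tail pairs it was -0.0024. Over such same-strand pairs it was 0.0943. In the closest head-to-head pairs with both detected (144 pairs) it was 0.136, beside 0.135 in same-strand and -0.0039 in tail-to-tail pairs of that gap. The median ratio between the levels of the 2 loci was 3.64-fold in head-to-head pairs, 3.94-fold in tail-to-tail pairs and 3.39-fold in same-strand pairs. Of the head-to-head pairs with both loci detected, 87 (23.3%) were within 2-fold of each other and 92 (24.6%) were more than 10-fold apart. The shares were 28.9% and 27.8% of tail-to-tail pairs, and 30.9% and 25.1% of same-strand pairs. The counts were made without a strand option. A fragment of one locus that lies in an exon of its partner alone thus cannot be told apart from a fragment of the partner.

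**Figure D2:**
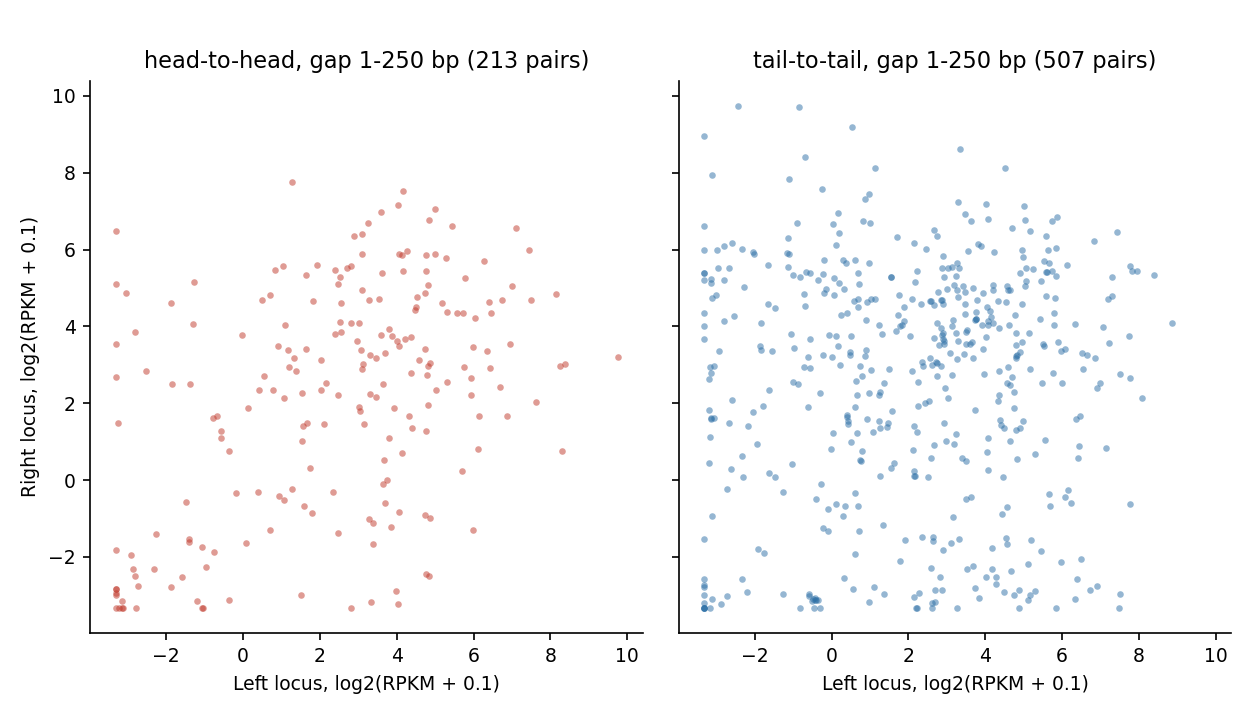
Level of the left locus (x axis) against that of the right locus (y axis), both as log2(RPKM + 0.1) averaged over the 6 libraries, for pairs with a gap of 1 to 250 bp; each point is 1 pair. Head-to-head pairs (213, r = 0.440) have a group with both loci at the floor in the lower left corner and few points along the left and lower edges, where tail-to-tail pairs (507, r = 0.0409) have many.

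Single pairs show how far apart 2 loci with facing starts could be. Among pairs with both loci detected, the one with the widest ratio lies around chromosome 1, 45607939 to 45608219 (gap 281 bp). Its right locus had 538, 422 and 346 RPKM in 2,4-D libraries and 452, 330.1 and 319 RPKM in untreated libraries. Its left locus had 0.837, 1.04 and 0.2495 RPKM in 2,4-D libraries and 0.839, 2.07 and 1.95 RPKM in untreated libraries. The right locus was thus high in every library and the left one low in every library, at an average ratio of 345-fold. In the next 3 pairs by ratio the loci were 219, 190 and 179-fold apart, on chromosomes 3 and 4 (gaps of 652, 795 and 228 bp), and their high loci had 163 to 783 RPKM over the 6 libraries, while their partners had 0.454 to 5.095 RPKM.

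At the other end, 4 pairs had the highest level in the lower of their loci. The first lies around chromosome 3, 43720930 to 43721105 (gap 176 bp). Its left locus, with 13 exons, had 140, 138 and 112 RPKM in 2,4-D libraries and 153, 168 and 123.1 RPKM in untreated libraries. Its right locus, with 4 exons, had 129.97, 117 and 106 RPKM in 2,4-D libraries and 66.7, 68.8 and 100.6 RPKM in untreated libraries. The groups overlapped for the left locus and did not for the right one, whose log2 fold change of 0.58 (2,4-D over untreated, SE 0.22) did not pass the test (edgeR adjusted p = 0.212). The other pairs of this kind, on chromosomes 1 and 4 with gaps of 833, 29 and 50 bp, had lower loci at 65.01, 64.4 and 52.4 RPKM on average, and none of their loci passed the test (edgeR adjusted p of 0.340 to 0.832).

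The pairs with both loci detected and the smallest gaps had only 7, 13, 14 and 14 bp between their annotated starts. Their loci were 38.3, 7.07, 3.04 and 3.84-fold apart in level. In the pair with 7 bp, around chromosome 3, 32616653 to 32616659, the left locus averaged 111 RPKM ± 26.8 in 2,4-D roots and 128 RPKM ± 22.1 in untreated roots (SD, n = 3 each). Its right locus averaged 3.14 RPKM ± 0.351 in 2,4-D roots and 3.12 RPKM ± 0.704 in untreated roots (SD, n = 3 each). None of the 8 loci passed the test, with edgeR adjusted p of 0.208 to 0.986.

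The second question was how these loci responded to 2,4-D. Few of them were called: of 1004 head-to-head loci tested, 3 rose and 1 fell (edgeR quasi-likelihood test over all transcripts, Benjamini-Hochberg adjusted p under 0.05). That is 0.398%, beside 2.18% of all tested transcripts (437 of 20061), 2.33% of tail-to-tail loci (58 of 2490) and 1.71% of same-strand loci (56 of 3273). Over all transcripts 1.48% were called higher and 0.703% lower. No head-to-head pair had both loci called by edgeR, against 2 tail-to-tail pairs and 1 same-strand pair. Both loci had an unadjusted edgeR p under 0.05 in 14 of 374 head-to-head pairs. The same held for 30 of 947 tail-to-tail and 70 of 1397 same-strand pairs. DESeq2 called both loci in 6 head-to-head, 10 tail-to-tail and 32 same-strand pairs, and limma voom in 0, 2 and 0. DESeq2 called more loci, 70 of the head-to-head ones (6.97%), beside 11.7% of all transcripts with an adjusted p, 9.72% of tail-to-tail and 10.4% of same-strand loci. An unadjusted edgeR p under 0.05 was found for 153 head-to-head loci (15.2%), beside 19.4% of all transcripts. Because roots were sampled whole, fewer cells that use a gene and less RNA of it per cell cannot be told apart in any of these values.

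The 4 called loci show what a response within such a pair looked like. Bradi1g72630.1 is the left locus around chromosome 1, 70599798 to 70600039 (gap 242 bp), and has 5 exons. It had 7.49, 6.34 and 7.15 RPKM in 2,4-D libraries and 1.43, 0.362 and 0.696 RPKM in untreated libraries, and rose by a log2 fold change of 3.08 (SE 0.50; edgeR adjusted p, 0.0351). Every 2,4-D library was above every untreated one. Its partner, 242 bp away with 9 exons, had 242, 242 and 168 RPKM in 2,4-D libraries and 235, 217 and 207 RPKM in untreated libraries. That strongly expressed partner had a log2 fold change of -0.02 (SE 0.20, edgeR adjusted p = 0.973), and its groups overlapped.

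In a pair on chromosome 2 (17563314 to 17563494, gap 181 bp) both loci were higher in all 2,4-D libraries. Bradi2g19997.2, the right locus with 6 exons, had 20.2, 18.4 and 15.2 RPKM in 2,4-D libraries and 3.51, 1.96 and 2.02 RPKM in untreated libraries, and rose by a log2 fold change of 2.85 (SE 0.32, edgeR adjusted p = 0.0145). The left locus, with 8 exons, had 55.7, 47.8 and 32.4 RPKM in 2,4-D libraries and 19.8, 13.9 and 18.8 RPKM in untreated libraries. Its log2 fold change was 1.37 (SE 0.26) and did not pass the threshold (edgeR adjusted p = 0.0530). This was the 1 pair with both loci called with DESeq2 size factors, with library totals, without a low-count filter or without 2,4-D replicate 3, where its left locus had an edgeR adjusted p of 0.0385 to 0.0491.

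On chromosome 3 (58680814 to 58681367, gap 554 bp) a left locus with 2 exons had 21.3, 18.8 and 35.9 RPKM in 2,4-D libraries and 3.43, 2.33 and 5.75 RPKM in untreated libraries. It rose by a log2 fold change of 2.72 (SE 0.44, edgeR adjusted p = 0.0341), while its partner was not tested, with 3 counts in 2,4-D replicate 1 and 0 in the other 5 libraries. The locus that fell, Bradi1g14800.1, has 1 exon and lies on the right around chromosome 1, 11716041 to 11716832 (gap 792 bp). It had 15.2, 14.7 and 20.7 RPKM in 2,4-D libraries and 58.6, 100.9 and 62.4 RPKM in untreated libraries (log2 fold change -2.13, SE 0.30; edgeR adjusted p, 0.0247). The partner, with 7 exons, had 24.6, 25.7 and 20.7 RPKM in 2,4-D libraries and 23.75, 25.6 and 22.5 RPKM in untreated libraries, a log2 fold change of -0.02 (SE 0.19). In 2 of the 3 pairs with both loci tested, the partner of the called locus thus had a log2 fold change of -0.02, with overlapping groups.

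**Figure D3:**
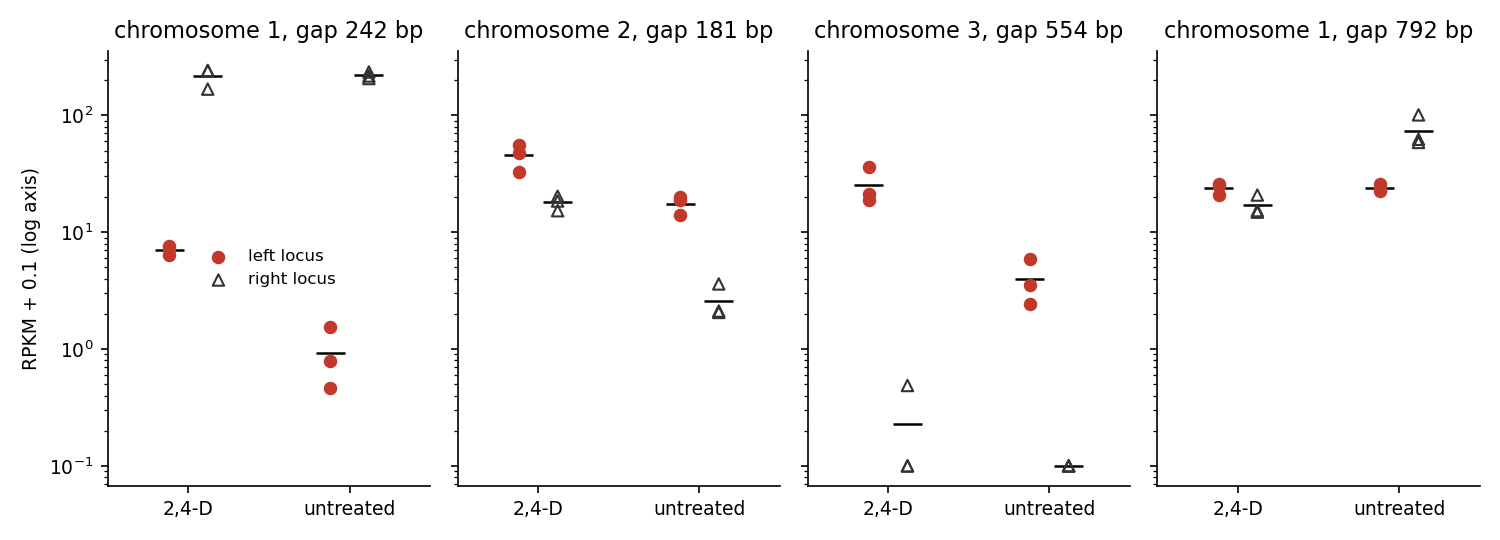
RPKM + 0.1 (y axis, log scale) in each 2,4-D library and each untreated library (x axis) for the 4 head-to-head pairs that hold a called locus; points are libraries, filled circles the left locus, open triangles the right locus, and bars the mean of 3. In the first and last pair the groups separate for 1 locus and overlap for its partner, and in the second both are higher in 2,4-D roots.

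No call held in every fit with 1 library left out. Bradi1g72630.1 lost its call in each of the 6 fits with 1 library left out (edgeR adjusted p of 0.0581 to 0.136). Bradi2g19997.2 lost it without 2,4-D replicate 1 (edgeR adjusted p = 0.085), 2,4-D replicate 2 (0.0510) or untreated replicate 2 (0.0786). The chromosome 3 locus lost it in 5 of these fits (edgeR adjusted p of 0.0627 to 0.122) and kept it without untreated replicate 3. Bradi1g14800.1 lost it without 2,4-D replicate 1 (edgeR adjusted p = 0.1234), 2,4-D replicate 2 (0.0732), untreated replicate 1 (0.0591) or untreated replicate 2 (0.0831). The count of called head-to-head loci was 0 without 2,4-D replicate 1 (100 at an unadjusted p under 0.05) and without untreated replicate 2 (79), 1 without 2,4-D replicate 2 or untreated replicate 1, 7 without 2,4-D replicate 3 and 9 without untreated replicate 3. Over all transcripts the same fits called 19 without 2,4-D replicate 1 and 0 without untreated replicate 2. Without untreated replicate 3, 0.879% of head-to-head loci were called, beside 1.74% of tail-to-tail loci and 1.80% of all transcripts.

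Fold changes of size were a smaller share of head-to-head loci than of the other classes. A fold of over 2 in either direction was seen in 12.3% of tested head-to-head loci (95 up and 28 down), in 17.0% of tail-to-tail loci, in 16.0% of same-strand loci and in 20.02% of all tested transcripts. With a gap of at most 250 bp it was 8.18% of head-to-head loci, against 14.9% of tail-to-tail and 14.3% of same-strand loci of that gap. The head-to-head share was below the tail-to-tail share in the fit as reported and in each of the 14 alternative fits, which share libraries. At the same gap it ran from 5.65% without 2,4-D replicate 3 to 14.2% without untreated replicate 3 over the fits with 1 library left out, where tail-to-tail loci had 13.05% and 21.2%. The median level of tested loci at this gap was similar, 12.1 RPKM in head-to-head and 13.1 RPKM in tail-to-tail pairs. Whether the classes differ by more than loci vary was not tested.

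The share of called loci also went with the gap. Among head-to-head neighbours it was 0.606% at 1 to 250 bp (2 loci), 0% up to 500 bp, 0.478% up to 1000 bp (2 loci), 1.46% up to 2000 bp, 2.22% up to 5000 bp and 2.84% up to 20000 bp, each bin starting where the one before it ends. Above 250 and up to 500 bp edgeR called 0 of 256 loci, with 41 at an unadjusted p under 0.05, while DESeq2 called 19 and limma voom 1. With DESeq2 the shares over the same bins were 4.85%, 7.42%, 8.37%, 10.3%, 12.3% and 14.3%. DESeq2 shares also went up in tail-to-tail loci, from 9.26% at 1 to 250 bp to 15.6% in the widest bin. In same-strand loci they went from 9.08% to 13.5%, and edgeR shares from 1.44% to 2.74%. Tail-to-tail neighbours had 1.75%, 1.85%, 3.21%, 2.67%, 3.32% and 2.92% by edgeR, with 2.84% against 2.92% at the widest gaps. The bins above 1000 bp were chosen after the values were seen.

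**Figure D4:**
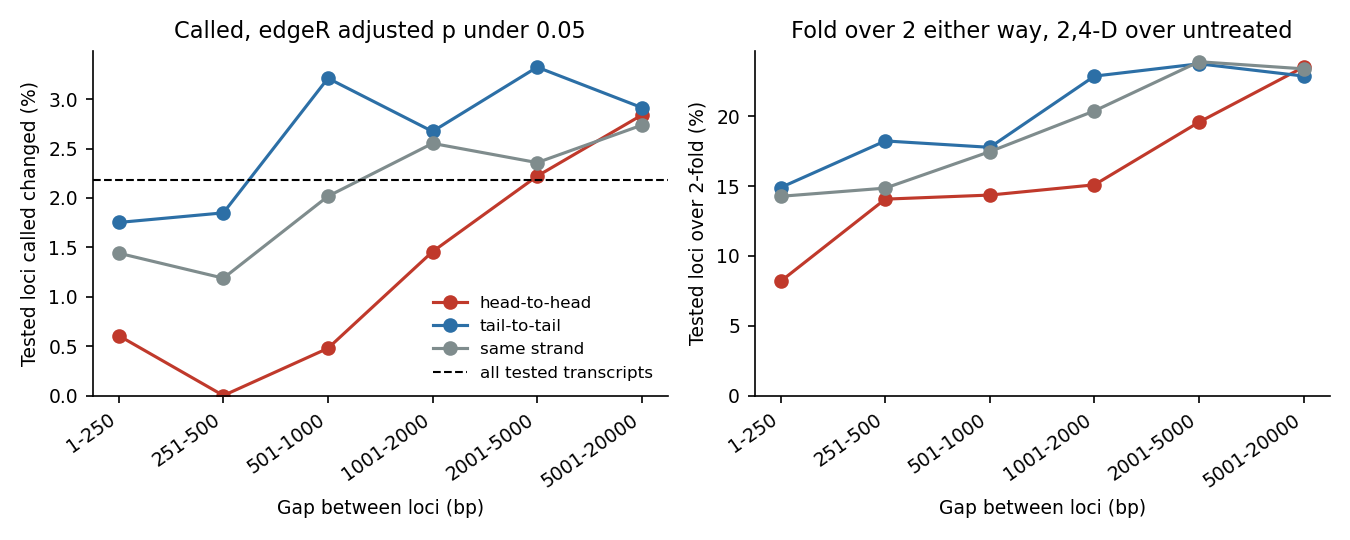
Share of tested loci called changed (left, y axis in percent; dashed line, all tested transcripts at 2.18%) and share with a fold of over 2 in either direction (right, y axis in percent), by gap between neighbouring loci in bp (x axis). Head-to-head loci go from 0.606% called at 1 to 250 bp to 2.84% in the widest bin, and from 8.18% to 23.5% over 2-fold. The share over 2-fold also goes up in tail-to-tail loci (14.9% to 22.9%) and same-strand loci (14.3% to 23.4%).

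The third question was whether the 2 loci of a pair moved together. Over the 374 head-to-head pairs with both loci tested, the log2 fold changes of left and right loci had a Pearson r of 0.163 and a Spearman rho of 0.142. Tail-to-tail pairs had an r of 0.104 over 947 pairs and same-strand pairs an r of 0.203 over 1397 pairs. Both loci had the same sign in 206 head-to-head pairs (55.1%), against 53.6% of tail-to-tail and 56.2% of same-strand pairs. The median absolute difference between the 2 log2 fold changes was 0.51 in head-to-head pairs, 0.62 in tail-to-tail pairs and 0.496 in same-strand pairs. Single head-to-head loci also changed less, with a median absolute log2 fold change of 0.343 against 0.366 in tail-to-tail loci. The part of this in the smaller difference was not tested. In the closest pairs r was 0.215 for head-to-head, 0.109 for tail-to-tail and 0.328 for same-strand pairs. All of these relations are weak. With 1 library left out, r ran from 0.143 to 0.259 in head-to-head pairs and from 0.0453 to 0.0922 in tail-to-tail pairs.

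**Figure D5:**
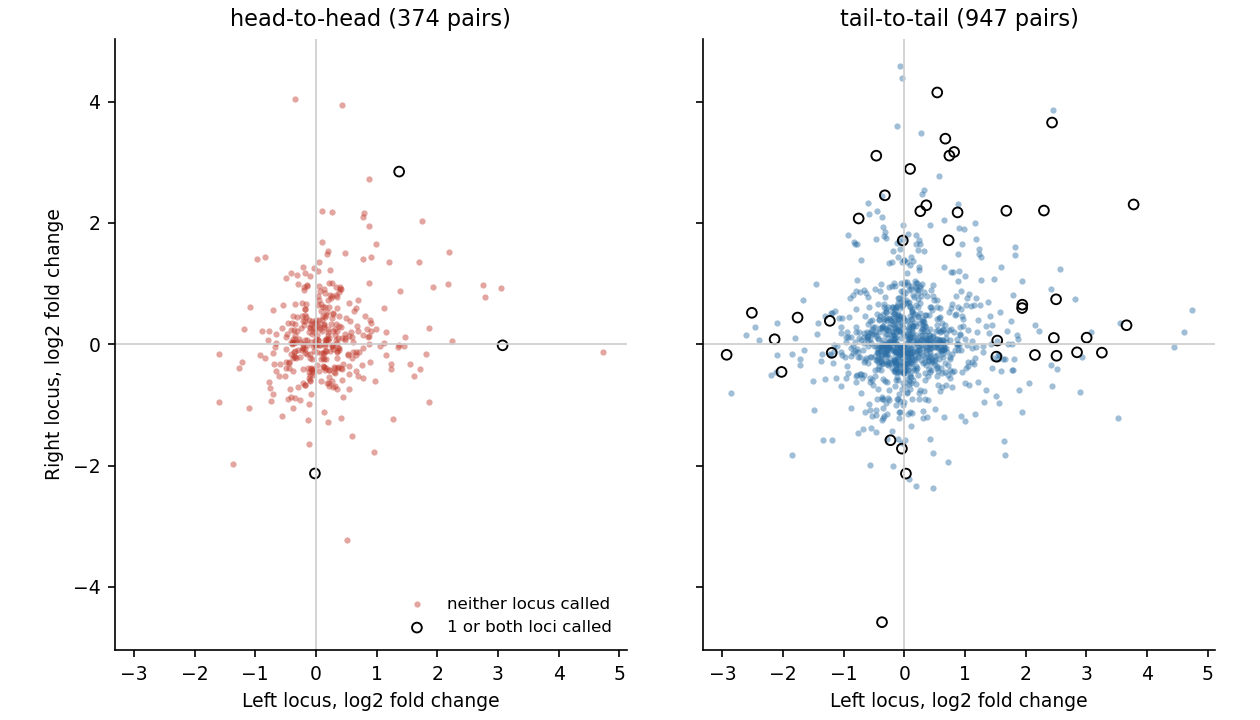
Log2 fold change (2,4-D over untreated) of the left locus (x axis) against the right locus (y axis) for head-to-head pairs and tail-to-tail pairs of 1 to 1000 bp with both loci tested; each point is 1 pair and open circles mark pairs with a called locus. Most head-to-head points lie near the centre (r = 0.163), and the called loci of 2 pairs lie on an axis, with the partner near 0.

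In some pairs both loci were shifted the same way. Non-overlap between the groups was seen in 249 of 1004 tested head-to-head loci (24.8%), beside 27.4% of all tested transcripts. Of these, 140 were higher and 109 lower in 2,4-D roots, where all transcripts had 13.8% higher and 13.6% lower. Non-overlap held for both loci in 26 of the 374 pairs with both loci tested. Of these, 16 went the same way (6 higher and 10 lower in 2,4-D roots) and 10 opposite ways. In tail-to-tail pairs it held for both loci in 56 of 947, with 30 the same way and 26 opposite. In same-strand pairs it held for both in 133 of 1397, with 93 the same way and 40 opposite. The numbers of such pairs expected from the single shares were not worked out. These counts alone thus do not tell how far loci of a pair moved together. Besides the chromosome 2 pair above, 3 pairs had the largest joint changes, and none of their loci passed the edgeR test, while the DESeq2 Wald test called both loci in each of these pairs. On chromosome 3 (57667495 to 57667857, gap 363 bp) the left locus averaged 29.2 RPKM ± 12.6 in 2,4-D roots and 8.71 RPKM ± 2.13 in untreated roots (SD, n = 3 each; log2 fold change 1.74, SE 0.39, edgeR adjusted p = 0.0754). The right locus averaged 4.001 RPKM ± 1.41 in 2,4-D roots and 0.975 RPKM ± 0.401 in untreated roots (SD, n = 3 each). That locus had a log2 fold change of 2.03 (SE 0.49, edgeR adjusted p = 0.0917). It had only 19, 17 and 29 counts in 2,4-D libraries and 6, 6 and 3 in untreated libraries. It thus passed the low-count filter through the 2,4-D group, where it was high.

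Also on chromosome 3 (59723350 to 59723609, gap 260 bp) 2 loci of low level had log2 fold changes of 2.19 and 1.53 (edgeR adjusted p = 0.0560 and 0.125). The left one had 2.85, 2.99 and 3.14 RPKM in 2,4-D libraries and 0.857, 0.321 and 0.771 RPKM in untreated libraries. The joint change downwards was that of a pair on chromosome 1 (75108531 to 75109118, gap 588 bp). Its left locus, with 7 exons, averaged 42.2 RPKM ± 14.7 in 2,4-D roots and 109 RPKM ± 16.3 in untreated roots (SD, n = 3 each; log2 fold change -1.37, SE 0.31, edgeR adjusted p = 0.0798). The right locus, with 2 exons, had 6.42, 6.84 and 1.96 RPKM in 2,4-D libraries and 20.8, 20.8 and 18.03 RPKM in untreated libraries (log2 fold change -1.97, SE 0.46, edgeR adjusted p = 0.0837). Both loci were lowest in 2,4-D replicate 3, so that this library was low for the pair as a whole.

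A direct test asked in which pairs the 2 loci responded differently, from the change in the ratio of left to right locus (limma over all adjacent pairs of 1 to 1000 bp with both loci tested, Benjamini-Hochberg adjusted p under 0.05). The ratio changed in 9 of 374 head-to-head pairs (2.41%), beside 4.27% of all 2718 pairs tested, 5.17% of tail-to-tail pairs and 4.15% of same-strand pairs. The largest change was in a pair on chromosome 2 (57889474 to 57890314, gap 841 bp). Its right locus had 0.630, 0.555 and 5.105 RPKM in 2,4-D libraries and 35.6, 13.2 and 10.05 RPKM in untreated libraries. Its left locus had 2.65, 1.57 and 2.11 RPKM in 2,4-D libraries and 2.32, 0.489 and 1.65 RPKM in untreated libraries. The ratio moved by 3.90 on the log2 scale (SE 0.78, limma adjusted p = 0.0408), while neither locus passed the test by itself (edgeR adjusted p = 0.652 for the left and 0.149 for the right). The right locus had only 11 and 10 counts in 2,4-D replicates 1 and 2. With a pseudocount of 2 CPM in place of 0.5 the ratio moved by 2.94 (log2, limma adjusted p = 0.0342).

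Among changed pairs whose 2 log2 fold changes differed in sign, the pair of Bradi1g72630.1 came next. Its ratio changed by 2.32 (log2, SE 0.33, limma adjusted p = 0.0157). Bradi1g72630.1 had only 10, 3 and 6 counts in untreated libraries and passed the low-count filter through the 2,4-D group. With a pseudocount of 2 CPM in place of 0.5 the ratio changed by 1.36 (log2, limma adjusted p = 0.0364). On chromosome 2 (50421365 to 50421665, gap 301 bp) the left locus averaged 1.94 RPKM ± 1.04 in 2,4-D roots and 0.536 RPKM ± 0.4445 in untreated roots, and the right locus 5.54 RPKM ± 1.51 in 2,4-D roots and 10.8 RPKM ± 1.12 in untreated roots (SD, n = 3 each). The ratio changed by 2.25 (log2, SE 0.49, limma adjusted p = 0.0493), and by 1.44 with a pseudocount of 2 CPM (limma adjusted p = 0.0415). The left locus of this pair had 38, 18 and 54 counts in 2,4-D libraries and 17, 5 and 6 in untreated libraries. That locus thus passed the low-count filter through the 2,4-D group. On chromosome 1 (72028791 to 72029152, gap 362 bp) the ratio changed by -1.98 (log2, SE 0.43, limma adjusted p = 0.0487), with a right locus at 2.14 RPKM ± 0.217 in 2,4-D roots and 0.797 RPKM ± 0.211 in untreated roots (SD, n = 3 each). The ratio also changed in the pairs of Bradi1g14800.1 (2.04 on the log2 scale, SE 0.33, limma adjusted p = 0.0247) and Bradi2g19997.2 (-1.43, SE 0.29, limma adjusted p = 0.0408), whose loci had the same sign. In the chromosome 2 pair with a gap of 301 bp and the chromosome 1 pair with a gap of 362 bp the ratio passed the test while neither locus did alone (edgeR adjusted p of 0.0987 to 0.244). The call for the chromosome 2 pair with the largest change was lost without 2,4-D replicate 1 or 2 or untreated replicate 1 or 2 (limma adjusted p of 0.109 to 0.168), and that for the pair of Bradi1g72630.1 without 2,4-D replicate 1 or 2 or untreated replicate 2 (0.0548 to 0.0919). The pair with a gap of 301 bp kept its call in 1 of the 6 fits with 1 library left out, without untreated replicate 1, and the pair with a gap of 362 bp in 0. With replicate number as a block the call was lost for the chromosome 2 pair with the largest change (limma adjusted p = 0.0712). It was also lost for the pair with 301 bp (0.0664) and for the pair with 362 bp (0.0594). With library totals it was lost for the last 2 (limma adjusted p = 0.0505 each). With a pseudocount of 2 it was lost for the pair with 362 bp (limma adjusted p = 0.0704, ratio change of -1.43 on the log2 scale). The number of head-to-head pairs with a changed ratio was 0 without 2,4-D replicate 1, 2,4-D replicate 2 or untreated replicate 2 (49, 58 and 34 at an unadjusted limma p under 0.05), 4 without 2,4-D replicate 3 or untreated replicate 1 and 15 without untreated replicate 3. Over all 2718 pairs the same fits called 0 without 2,4-D replicate 1 or untreated replicate 2, 0.773% without 2,4-D replicate 2, and 6.18% without untreated replicate 3, where head-to-head pairs had 4.01%.

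Loci of a pair also varied together, to a small degree, between replicates of one group. For each library the deviation of log2(CPM + 0.5) from its group mean, CPM being counts scaled to library size, was correlated between left and right loci over the 374 pairs. In head-to-head pairs r was 0.113, 0.325 and 0.215 in 2,4-D replicates 1, 2 and 3, and 0.156, 0.236 and 0.0329 in untreated replicates 1, 2 and 3. In tail-to-tail pairs it ran from 0.0588 to 0.105, and in same-strand pairs from 0.113 to 0.216. The head-to-head value was the highest of the 3 classes in 2,4-D replicates 2 and 3 and in untreated replicate 2, and the lowest in untreated replicate 3.

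The exons of head-to-head loci summed to a median of 1193 bp, against 1404 bp in tail-to-tail loci, with a median of 3 exons in both classes. Single-exon loci made up 21.9% of head-to-head and 19.5% of tail-to-tail loci. The exon numbers of left and right loci had an r of 0.118 on the log2 scale in head-to-head pairs, -0.0127 in tail-to-tail pairs and 0.135 in same-strand pairs. Where a gene model lacks its untranslated ends, the annotated gap is longer than the distance between the true starts. Exon length was a multiple of 3, as it is for coding sequence, in 52.02% of head-to-head and 51.4% of tail-to-tail loci. The head-to-head share was 45.07% in pairs of up to 250 bp and 58.4% in pairs of over 500 bp. The pairs made up from 2.73% of adjacent pairs on chromosome 4 to 3.30% on chromosome 2. Of the 1532 loci, 253 were also part of a tail-to-tail pair and 200 of a same-strand pair, so the classes are not fully separate.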

How the data were processed

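Strand-specific mRNA libraries from 6 root samples were counted by the authors. The deposited table holds raw counts per transcript. Per the file headers, featureCounts 1.4.3 counted read pairs over exons of annotation version 2.1, kept fragments between 50 and 1000 bp, and ran with neither a strand option nor the option that counts fragments touching several transcripts. The deposited exon length per transcript (column 6) was used for RPKM. Other tools in the submitters' processing notes are bcl2fastq 1.8.4, FastQC 0.11.3 and limma 3.28.7, and the aligner is not given in the sources used here.

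The whole table was fitted with edgeR 4.0.16 (R 4.3.3): TMM scaling, expression filter by group (minimum count 10), robust quasi-likelihood F test, Benjamini-Hochberg over 20061 transcripts. CPM and RPKM use TMM-adjusted library sizes. Ratios within pairs were tested with limma 3.58.1 (trend) on log2(CPM + 0.5). DESeq2 1.42.0, voom, other scalings, filters, gaps and leaving out libraries were alternatives. Each standard error is the absolute log2 fold change over the root of F.

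Members, lists and naming rules were chosen with earlier results of these data known. Pairs were named for called loci, highest or most unequal levels, changed ratios, smallest gaps and joint changes; no pair fell under the rule for both loci called. Product and marker lists could not be used without gene names. The series describes biological replicates with RNA isolated from each, without saying how plants were divided among them, so p-values measure the spread between these samples. The lowest ratio of chi-square to its degrees of freedom between libraries of 1 group was 17.3, so the libraries differed by more than counting error. That does not tell whether they came from separate plants. Each library was counted as 1 sample. The precision at this depth covers counting error only.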

Additional observations from a re-analysis of the deposited data

How the results depend on the processing

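The count of called head-to-head loci (4) was 7 with library totals, 70 with the DESeq2 Wald test, 8 with limma voom, and 2 with gaps up to 500 or 250 bp, and ran from 0 to 9 with 1 library left out. The count of pairs with both loci called (0) was 1 with DESeq2 size factors, library totals or no low-count filter and 6 with the DESeq2 Wald test, and ran from 0 to 1 with 1 library left out. The correlation of log2 fold changes within head-to-head pairs (0.163) was 0.243 without a filter and 0.215 up to 250 bp, and 0.143 to 0.259 with 1 library left out; within tail-to-tail pairs (0.104) it was 0.130 without a filter, 0.0802 with 1 CPM in 3 libraries, 0.0804 up to 500 bp, and 0.0453 to 0.0922 with 1 library left out. The correlation of levels within head-to-head pairs (0.210) was 0.269 up to 500 bp, 0.440 up to 250 bp, 0.155 and 0.240 with pseudocounts of 1 and 0.01, 0.0233 over pairs with both loci tested, and 0.208 to 0.211 with 1 library left out; within tail-to-tail pairs (0.0846) the same settings gave 0.0448, 0.0409, 0.0552, 0.113, -0.0024 and 0.0822 to 0.0858. The number of head-to-head pairs with a changed ratio (9) was 5 with both loci at 5 CPM or more, 4 with the replicate block, 3 up to 500 or 250 bp, and 0 to 15 with 1 library left out. The causes were not tested. Leaving out a library also lowers power.

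Deviations of same-numbered libraries correlated at -0.100, 0.354 and 0.0891, and 3 of 6 libraries correlated best with their own number, so the labels' numbers were not taken to pair the libraries. With replicate number as a block, 3 head-to-head loci were called, and r of log2 fold changes was 0.153 in head-to-head and 0.104 in tail-to-tail pairs. Bradi1g72630.1 (edgeR adjusted p = 0.0626) and Bradi1g14800.1 (0.0614) lost their calls under the block. Counting adjacency with every locus in the sort left the 766 head-to-head pairs as they were.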

Other observations

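Head-to-head loci that touch or overlap, left out of the pairs above, are a separate set of 192 pairs. Their median gap was -2232.5 bp, where a negative gap is an overlap. Their annotated starts were thus often further apart than in the pairs above. Overlapping tail-to-tail pairs overlapped less, with a median gap of -787.5 bp. Over the 103 overlapping head-to-head pairs with both loci tested, the log2 fold changes had a Pearson r of 0.505 (Spearman rho 0.447). For 228 overlapping tail-to-tail pairs r was 0.0211. Without the 10 pairs with the largest change the head-to-head value was 0.454, and with 1 library left out it ran from 0.434 to 0.512. Non-overlap between the groups was seen in 23.9% of tested overlapping head-to-head loci, beside 27.4% of all tested transcripts. It was seen in both loci of 10 of the 103 pairs, 5 higher and 5 lower in 2,4-D roots. In none of these did the loci go opposite ways. In overlapping tail-to-tail pairs it was seen in both loci of 21 of 228, with 14 the same way and 7 opposite ways. Numbers expected from the single shares were not worked out here either. Of the overlapping head-to-head loci, 2 of 268 tested (0.746%) were called by edgeR, both lower. That stands beside 2.18% of all tested transcripts and 1.25% of overlapping tail-to-tail loci. Counting used no strand, so within overlapping loci a fragment of one that lies in an exon of its partner alone cannot be told apart from a fragment of the partner, and the part of this in the correlation was not tested. These values were looked at after those of the separate pairs were seen.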
